A study of Helianthus annuus with 142 samples.

Results

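The genes described here lie along chromosome 8 of the cultivated sunflower, Helianthus annuus. They were chosen by their mean expression level and by the size of their average change under drought: of the 3034 genes that the count table places on this chromosome, 1537 had a mean level from 1 to under 1000 CPM (counts scaled to a common library total) and a log2 ratio of stress to control between -3 and 3, computed with 0.5 CPM added to both means. The whole table holds 58050 genes, and 27140 genes of the other 16 chromosomes met the same conditions. Of the chromosome 8 genes left out, 1460 had a mean under 1 CPM, 290 of them with no count in any library, 7 reached 1000 CPM or more, 23 had a log2 ratio of 3 or more and 7 a log2 ratio of -3 or less. The chosen genes just inside the limits had a mean of 1.01 and 998 CPM and log2 ratios of -2.99 and 2.94, and the nearest genes outside had 0.999 and 1404 CPM and -3.08 and 3.11.

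RNA was sequenced from leaves of single potted plants of 24 genotypes: the lines SF009, SF092, SF109, SF193, SF279, SF317, SF326 and SF342, and the 16 hybrids that the labels name from 4 lines as first-named parent (SF009, SF092, SF109 and SF193) and 4 as second-named parent (SF279, SF317, SF326 and SF342). Control plants were kept watered, at a fraction of transpirable soil water (FTSW, the share of the water in the pot that the plant can use) of 1, and stressed plants were harvested when it had fallen to 0.1, by a protocol text that also speaks of a further genotype and may have been written for another study. Each of the 48 groups of genotype by water supply had 3 libraries, apart from SF342 in control, with 1 library, so 142 libraries were compared, 46 from lines and 96 from hybrids. The labels do not say which of the named parents was the seed parent.

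In a hybrid of inbred lines, each copy of a chromosome comes from a different parent, so a gene that is silent or missing in a line can be supplied by the other parent. Neighbouring genes on a chromosome tend to be inherited together, so lines that share ancestry can be alike over long stretches and unlike elsewhere. Leaves that run short of water close their stomata and change the expression of a large share of their genes, with photosynthesis and growth genes commonly lowered and protective genes raised. The files pair no identifier with a gene name, and 0 of the table's identifiers matched the 83308 genes of the RefSeq annotation, so members are given by identifier and position only. No function is attached to them, and the leaf label could not be checked against marker genes. In whole leaves, fewer cells of a type and less RNA per cell cannot be told apart.

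Library totals ran from 2796719 to 13765614 counts with a median of 6922010, and the chosen genes took 3.17% to 4.30% of them. A count of 0 in 1 library allows a level of up to 0.433 CPM at the median total (3 counts), and 0 over all libraries of a line allows 0.0528 to 0.118 CPM, for counting error only. Of the 142 libraries, 138 matched their own label best over 3054 genes outside chromosome 8 that are on in some genotypes and off in others. The library labelled SF092_SF317 stress 3 had the state of SF326 at 99.5% of those with a state and that of its own label at 54.3%, and the library labelled SF326 stress 3 had the state of SF092_SF317 at 98.4% and of its own at 50.6%. The library labelled SF009_SF279 control 1 matched SF009_SF326 (85.8%) better than its own label (70.9%), and that labelled SF009 control 2 matched SF009_SF326 (84.9%) slightly better than its own (82.9%). Over 197 on/off genes of chromosome 8 itself, 7 libraries matched another label best: these without that labelled SF009 control 2, and the libraries labelled SF009 control 1 and SF009 stress 1, 2 and 3. That labelled SF009 stress 3 had the state of SF193_SF342 at 88.2% and of its own label at 66.0%, and that labelled SF009 stress 1 the state of SF009_SF279 at 77.3% and of its own at 73.2%. Counts without the 4 libraries that differed outside chromosome 8 are given for the comparisons between genotypes, and those without SF009, SF092 and SF326 and their hybrids where they differ most.

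The plants of the line SF009 also differed among themselves on chromosome 8. Among its 6 libraries, 117 chosen genes reached 2 CPM in at least 1 plant and were under 0.1 CPM in another, and 107 did so without its library that matched another label better. SF326 had 130 such genes, and 17 without its library that matched another label. The other 6 lines had between 6 (SF342, 4 libraries) and 35 (SF279). The SF009 genes were spread over all 16 windows of 10 Mb, with 17 between 20 and 30 Mb and 1 between 140 and 150 Mb. Such genes were not counted on the other chromosomes, so they do not set chromosome 8 apart. Over the 3054 genes outside chromosome 8, SF009 stress 1, 2 and 3 had the state of their own label at 82.4%, 86.9% and 82.5%.

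The members lay between positions 30705 and 153138674 of the chromosome, in the coordinates of the count table. Which genome build these refer to is not stated. Windows of 10 Mb held from 183 members at 0 to 10 Mb down to 37 at 150 to 160 Mb. Their median level per window was between 6.47 CPM (20 to 30 Mb) and 14.2 CPM (140 to 150 Mb). All 1537 passed the filter on low counts and were tested together with all other genes, 36989 in all.

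The average drought change is a description, because the rule that chose the members used it. Of the 1537 members, 526 (34.2%) were called higher and 581 (37.8%) lower under stress (edgeR, adjusted p under 0.05), where 31.4% and 32.6% of all genes tested were called, and 36.6% and 37.0% of the genes chosen alike elsewhere. The median log2 fold change of the members was 0.02, beside 0.02 for all genes tested. Among the called members, 95 were more than 2-fold higher and 195 more than 2-fold lower. In all 24 genotypes, 110 members were higher and 179 were lower. These numbers were not counted for the other genes, so they do not set chromosome 8 apart. For the 267 members without a count in at least 1 group, the size of the fold change is uncertain. When libraries were scaled by their totals alone, the median of all genes tested moved by 0.20 on the log2 scale, and the split of the members changed to 691 higher and 426 lower.

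The lowest median over members of a window was found between 60 and 70 Mb and the highest between 130 and 140 Mb. The 67 members of the first of these windows had a median log2 fold change of -0.17, and the 50 members of the other had 0.29. Taken per genotype, the median of the 60 to 70 Mb window was -0.21 ± 0.11 (SD over 24 genotypes) and lay between -0.40 and 0.00, above 0 in 0 of 24 genotypes. That of the 130 to 140 Mb window was 0.20 ± 0.12 and was above 0 in 22 of 24. In all 24 genotypes the window from 130 to 140 Mb lay above that from 60 to 70 Mb, by 0.40 ± 0.18 on the log2 scale (SD). Lines and hybrids thus shared the order of these windows, which were picked for their medians. In windows of 20 Mb the highest median was 0.11.

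The windows from 0 to 10 Mb (median -0.10) and from 10 to 20 Mb (-0.15) were also on the low side, and their genotype medians were above 0 in 1 and 2 of 24 genotypes. Between 60 and 70 Mb, 17 members were called higher and 33 lower, and between 10 and 20 Mb, 42 and 74. From 30 to 50 Mb the balance was the other way, with 50 higher and 39 lower in the first 10 Mb and 47 higher and 35 lower in the next. Over 290 windows of the other 16 chromosomes, with members chosen alike, the medians ran from -0.28 to 0.28. The window from 130 to 140 Mb lay barely above the highest of them (0.292 beside 0.280), and the lowest window within their range. With replicate 1, 2 or 3 left out in turn, the highest window median of chromosome 8 was 0.252 to 0.332, so this rank is a description only. The run without replicate 3 also lacked the line SF342, whose only control library is replicate 3. Relative to the median of all genes tested, the lowest and highest windows were at -0.20 and 0.27, and with library totals alone at -0.20 and 0.28.

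**Figure D1:**
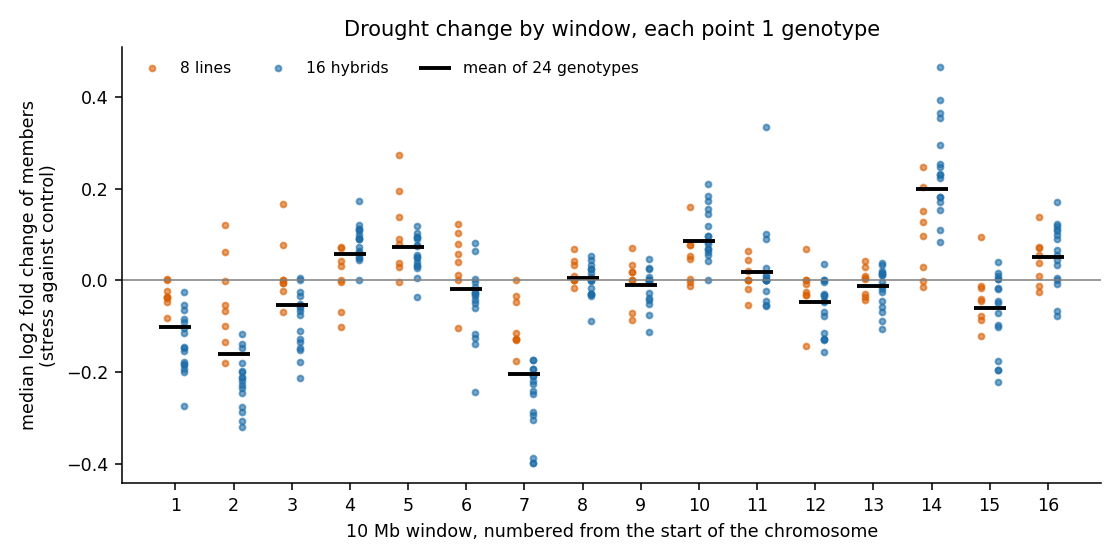
Each point is the median log2 fold change (stress against control, y axis) of the members of a 10 Mb window (x axis, windows numbered from the start of the chromosome) in 1 genotype, orange for the 8 lines and blue for the 16 hybrids, and the black bars are means over the 24 genotypes. Window 7 (60 to 70 Mb) has its mean at -0.21 with no genotype above 0, and window 14 (130 to 140 Mb) its mean at 0.20.

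The members with the largest average changes among those with 1 direction in all 24 genotypes follow as a description. Their levels are CPM by library totals, while fold changes are from the fit scaled by the trimmed mean of M-values (TMM). HanXRQChr08g0213601 (17844504 to 17846089, plus strand) had library levels of 0.00, 0.518 and 3.48 CPM (lowest, median and highest of the control libraries) and 0.215, 5.28 and 18.1 CPM under stress. Its genotype means were 0.609 ± 0.450 CPM (SD, 24 genotypes) in control and 5.68 ± 2.44 CPM under stress. The ranges of single libraries overlapped, while the stress level was the higher in every genotype. HanXRQChr08g0222541 (55578476 to 55580899, plus strand) went from 0.953 ± 0.846 to 7.34 ± 4.39 CPM, a log2 fold change of 2.78 ± 0.16 (SE). It lies within a run of 3 neighbouring members that were all more than 2-fold higher, from 55548648 to 55627637.

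On the lower side, HanXRQChr08g0232251 (115015376 to 115016368, minus strand) had 0.103, 2.03 and 7.42 CPM (lowest, median and highest control library) and 0.00, 0.00 and 1.14 CPM under stress. The median stressed library had no count of it, and all 72 together held 68. HanXRQChr08g0207791 (737349 to 741394, plus strand) had 0.206, 6.18 and 16.4 CPM in control libraries and 0.00, 0.188 and 3.25 CPM under stress. Its genotype means were 6.44 ± 3.17 CPM in control and 0.392 ± 0.388 CPM under stress, and no genotype went the other way.

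The question of the 24 genotypes under both levels of water supply is whether the drought response depends on the genotype. For 250 of the 1537 members (16.3%) it did, by the interaction of genotype and water supply (edgeR quasi-likelihood F-test, Benjamini-Hochberg adjusted p under 0.05), beside 11.9% of all genes tested and 13.8% of those chosen alike elsewhere. By window, the share was lowest between 40 and 50 Mb (7.96%) and highest between 20 and 30 Mb (24.4%) and between 0 and 10 Mb (23.5%). This count rests on all replicates together, since with replicate 1, 2 or 3 left out 21 to 43 members were called. These were 1.37% to 2.80% of the members, beside 1.28% to 2.03% of those chosen alike elsewhere. The run without replicate 3 (21 members) also lacked the line SF342. Without SF342 alone 192 members were called (12.5%, beside 10.4% elsewhere). Without the lines SF009, SF092 and SF326 and their hybrids the count was 65 (4.23%, beside 4.07% elsewhere). Without the 4 libraries that matched another genotype better it was 302 (19.6%, beside 18.3%). The distance to the other chromosomes was thus small in most of these alternatives.

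HanXRQChr08g0216131 (27497615 to 27503589, plus strand) had the lowest interaction p (adjusted p = 5.69e-09). In SF009 its 3 control plants had 0.476, 11.9 and 4.26 CPM and its 3 stressed plants 0.00, 0.00 and 0.0937 CPM. The 11.9 CPM came from the library labelled SF009 control 2. Its mean was 8.31 CPM in control and 17.1 CPM under stress in SF109_SF317, and 12.9 and 20.8 CPM in SF109_SF342, while the line SF109 had 24.7 and 20.1 CPM. In SF193 and SF279 it stayed at or under 0.183 CPM at both levels. Without SF009, SF092 and SF326 and their hybrids its adjusted p was 0.0797.

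HanXRQChr08g0231881 (111994885 to 111998974, plus strand), at 17.2 to 90.5 CPM in all control libraries, had the next lowest interaction p (adjusted p = 2.94e-07). Its mean under stress was the higher in SF279 (31.7 to 72.0 CPM), in all 4 hybrids of SF279 and in the hybrids of SF326 with SF009 (24.1 to 60.3 CPM), SF092 and SF109. It was the lower in SF193_SF326 (56.6 to 39.0 CPM) and SF193_SF342 (48.5 to 33.3 CPM). In SF342 the single control library had 90.5 CPM and the 3 stressed plants 62.9, 51.2 and 57.8 CPM. By library totals, the mean over genotypes was 40.2 CPM in control and 46.5 CPM under stress. After TMM scaling the stressed plants were the higher in 11 of 24 genotypes. For this gene edgeR then called no average drought change (0.028 on the log2 scale, adjusted p = 0.750).

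The 8 lines differed at most members. An effect of the line, averaged over both levels of water supply, was called for 1262 members (82.1%, edgeR, adjusted p under 0.05), beside 75.7% of all genes tested and 77.1% of those chosen alike. Without the 4 mismatched libraries it was 1294. The share was between 72.6% (140 to 150 Mb) and 89.6% (60 to 70 Mb). It was above the median of the windows of the other chromosomes (77.4%) in 13 of 16 windows.

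Between pairs of lines the number of members called went from 188 (SF092 and SF326) to 648 (SF193 and SF342), with a median of 523.5 over the 28 pairs. For SF092 and SF326, 12.2% of the members were called, beside 8.48% of all genes tested, and for SF193 and SF342, 42.2% beside 27.9%. SF092 and SF326 were thus the pair with the fewest differences, at 3.66% (120 to 130 Mb) to 22.2% (20 to 30 Mb) of the members of a window. One of the 6 SF326 libraries was a mismatched one. Without the 4 mismatched libraries SF092 and SF326 differed at 282 members (18.3%, beside 14.3% of all genes tested), still the fewest of the 28 pairs, at 9.73% (40 to 50 Mb) to 31.9% (20 to 30 Mb) of a window. SF009 and SF326 then differed at 616 members, SF317 and SF326 at 612 and SF009 and SF092 at 609, while SF326 and SF342 differed at 442. SF342 had mostly lower levels than the lines it differed from. In its 7 pairs 64.5% of the calls on chromosome 8 were lower in SF342, beside 49.6% for genes chosen alike on the other chromosomes. SF317 was lower in 61.3% of its calls (53.7% elsewhere) and SF279 in 41.9% (54.1% elsewhere). With library totals alone these shares were 59.9%, 60.2% and 49.3%.

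The other pairs are given with the share of all genes tested that was called as the background. SF009 differed at 527 members from SF092 (background 31.1%), 485 members from SF109 (background 31.6%), 505 members from SF193 (background 33.1%), 611 members from SF279 (background 37.2%), 591 members from SF317 (background 31.4%), 492 members from SF326 (background 26.0%) and 608 members from SF342 (background 30.3%). Beside its small distance to SF326, SF092 differed at 465 members from SF109 (background 27.3%), 472 members from SF193 (background 30.4%), 467 members from SF279 (background 29.2%), 557 members from SF317 (background 29.4%) and 556 members from SF342 (background 26.8%). SF109 differed at 520 members from SF193 (background 31.9%), 507 members from SF279 (background 30.7%), 528 members from SF317 (background 28.1%), 507 members from SF326 (background 25.9%) and 505 members from SF342 (background 25.3%). SF193 differed at 500 members from SF279 (background 36.2%), 573 members from SF317 (background 30.1%) and 556 members from SF326 (background 31.1%). SF279 differed at 589 members from SF317 (background 31.4%), 514 members from SF326 (background 28.2%) and 574 members from SF342 (background 27.0%). SF317 differed at 546 members from SF326 (background 27.8%) and 538 members from SF342 (background 27.1%). SF326 differed at 443 members from SF342 (background 22.5%). In 25 of the 28 pairs the share of members called was above this background.

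The end of the chromosome set SF279 apart. Between 150 and 160 Mb a median of 51.4% of the 37 members was called in the 7 pairs with SF279, and a median of 16.2% to 29.7% in the pairs of each other line, pairs with SF279 included. In the next window toward the centre, from 140 to 150 Mb, SF279 had a median of 21.0% and the other lines 21.0% to 27.4%. Between 20 and 30 Mb, SF317 had the highest median (51.1%), and between 60 and 70 Mb SF342 (49.3%).

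**Figure D2:**
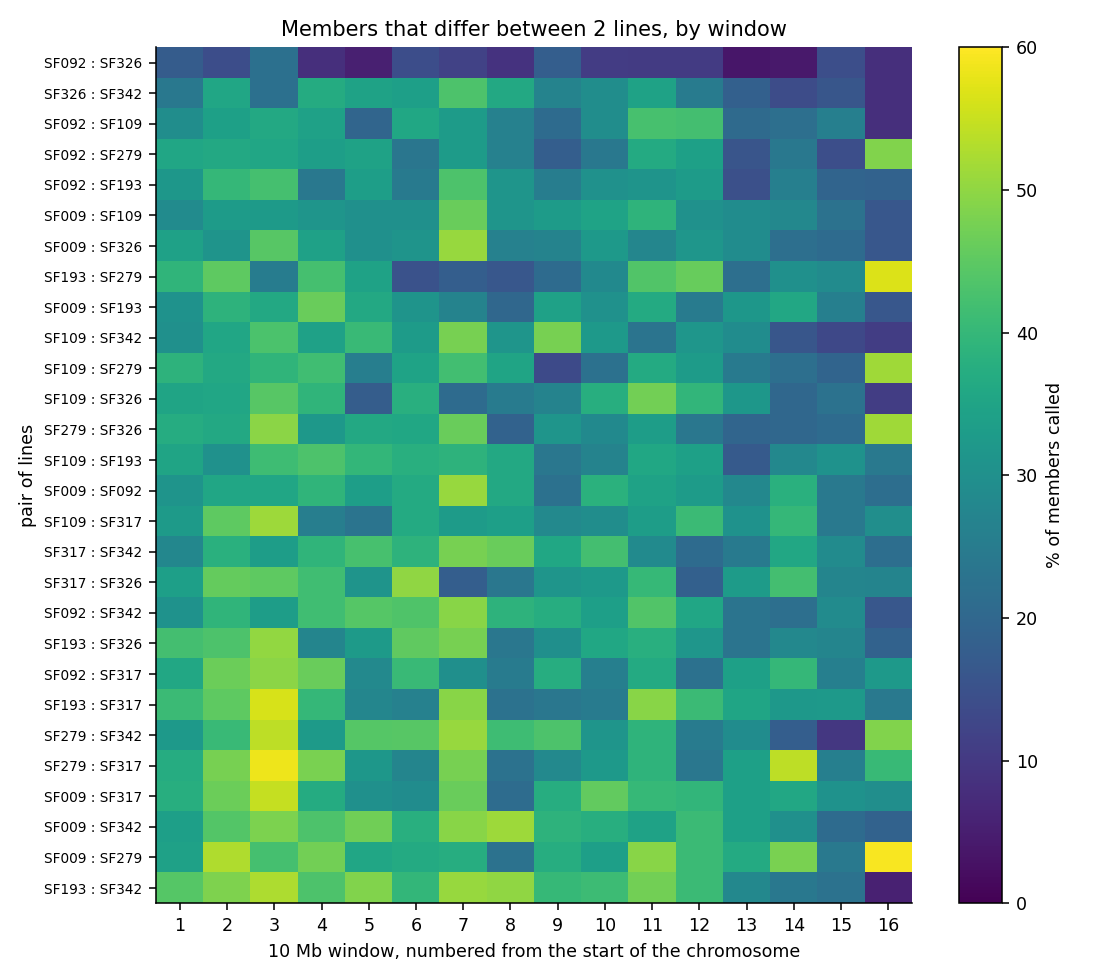
Each row is a pair of lines, ordered by the number of members called, each column a 10 Mb window numbered from the start of the chromosome, and the colour is the share of its members called (edgeR, adjusted p under 0.05). The top row (SF092 and SF326) lies between 3.66% and 22.2%, and in window 16 (150 to 160 Mb) the brightest cells are pairs with SF279.

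The member with the lowest p among lines was HanXRQChr08g0228351 (94464681 to 94467910, minus strand; adjusted p = 5.53e-63). Its mean was 94.4 CPM in SF279 and 60.1 CPM in SF009 in control plants, 6.63 in SF342, 2.41 in SF092 and at most 0.230 CPM in SF109, SF193, SF317 and SF326. Stressed plants had the same order, with 107, 75.8, 8.08, 2.57 and at most 0.782 CPM. All hybrids of SF279 and of SF009 were at 48.9 to 131 CPM. HanXRQChr08g0225121 (71290332 to 71293834, minus strand; adjusted p = 5.36e-50) was at 34.3 to 60.7 CPM in SF009, SF193 and SF279, at 3.08 to 7.49 CPM in SF092, SF317 and SF326, at most 0.0876 CPM in SF109, and without a count in SF342.

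Among hybrids, the factorial of 4 by 4 parents separates the effect of each parent from that of their combination only under 1 condition. Each label must stand for the same parent in all of its crosses, which was not tested. States that went against the labelled parents are given below. The first-named parent had a called effect on 879 members (57.2%, edgeR, adjusted p under 0.05), beside 53.6% of all genes tested and 56.1% of those chosen alike. The second-named parent had one on 1019 members (66.3%), beside 52.3% and 55.2%. Without the 4 mismatched libraries the counts were 896 and 1029. Taken singly, the other 16 chromosomes had 47.4% to 68.5% for the second-named parent, so that chromosome 8 came after chromosome 1 (68.5%) and before chromosome 17 (59.5%). For the first-named parent they had 51.0% to 61.2%, and 6 of them lay above chromosome 8. The share for the second-named parent was above the median of the other chromosomes' windows (55.6%) in 14 of 16 windows and above their 95th percentile (70.0%) in 5 of 16, where windows of 1 chromosome are linked. The difference between chromosomes was not tested. Without SF009, SF092 and SF326 and their hybrids the share for the second-named parent was 45.9% beside 36.6% elsewhere, and that for the first-named parent 28.0% beside 26.2%.

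By window, the first-named parent had its largest share between 60 and 70 Mb (76.1%) and its smallest between 140 and 150 Mb (38.7%). The second-named parent had 79.1% between 60 and 70 Mb, 77.0% between 20 and 30 Mb and 44.7% between 110 and 120 Mb. A combination effect, where a hybrid departs on the log scale from the sum of its parents' effects, was called for 353 members (22.97%). All genes tested had 18.8% and those chosen alike 19.1%, and without the 4 mismatched libraries 411 members were called. Of the 353, 118 were among the 162 members without a count in at least 1 genotype at both levels of water supply. Among the other 1375 members 235 were called. Without SF009, SF092 and SF326 and their hybrids 99 members were called (6.45%, beside 5.45% elsewhere). With all genotypes, the share with a combination effect was 37.3% between 60 and 70 Mb, 33.3% between 20 and 30 Mb and 6.45% between 140 and 150 Mb. The window from 60 to 70 Mb had the largest share of calls for lines and for all 3 effects among hybrids.

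**Figure D3:**
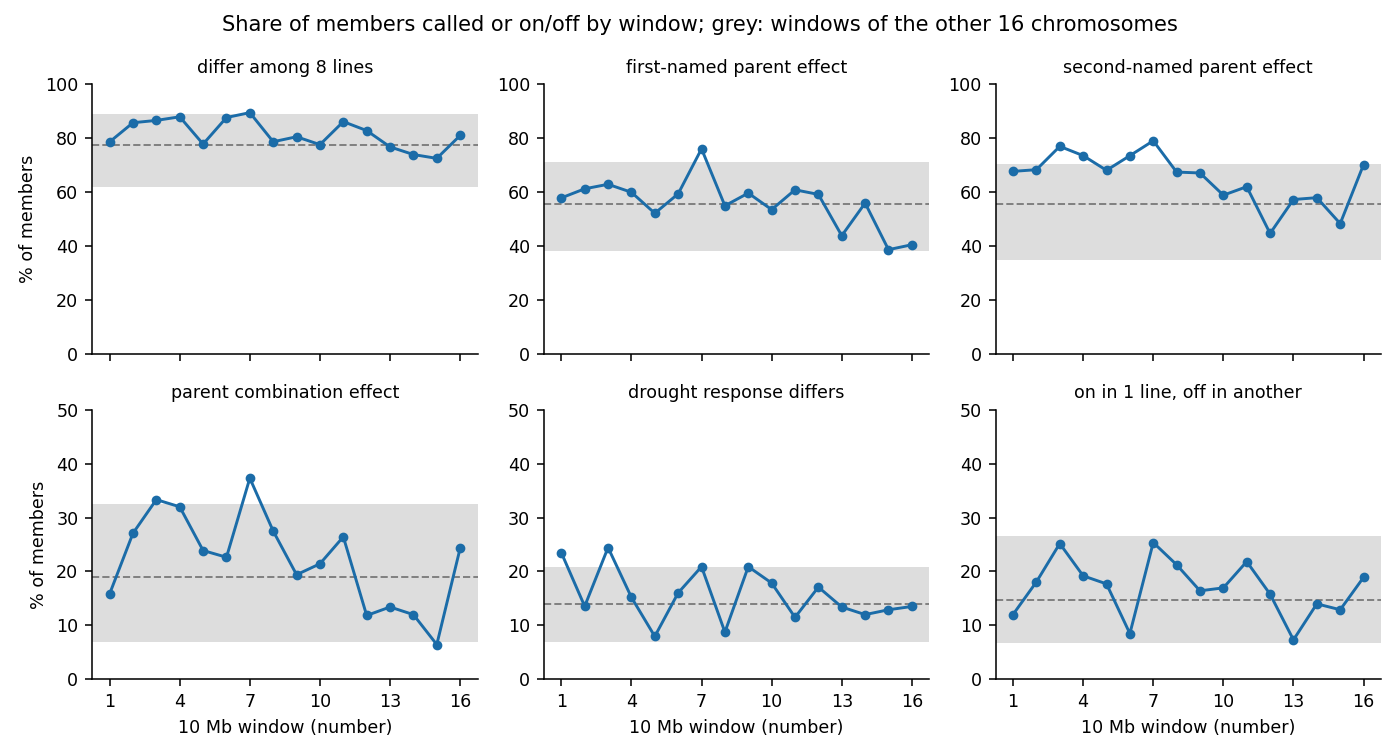
Panels give the share of the members of each 10 Mb window (y axis in percent, windows numbered from the start of the chromosome) called by edgeR for line differences, first-named parent, second-named parent, parent combination and a drought response that differs between genotypes, and the share that was on in 1 line and off in another. The grey band spans the 5th to the 95th percentile of 290 windows of the other 16 chromosomes and the dashed line their median, and window 7 reaches 76.1%, 79.1% and 37.3% in the parent panels.

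HanXRQChr08g0228351 also had the lowest p for the first-named parent (adjusted p = 3.10e-57), the second-named parent (3.96e-57) and the combination (1.93e-43). It was at 0.123 to 1.16 CPM in SF092_SF317, SF109_SF317, SF193_SF317 and SF193_SF326 and at 3.61 to 7.80 CPM in the hybrids of SF342 with SF092, SF109 and SF193. The hybrids SF092_SF326 and SF109_SF326 were at 54.7 and 54.3 CPM in control plants, although the lines SF092, SF109 and SF326 had 2.41, 0.0876 and 0.230 CPM. Without SF009, SF092 and SF326 and their hybrids its adjusted p was 0.0875 for the first-named parent and 0.834 for the combination. HanXRQChr08g0225121, the other member with the lowest p for the first-named parent (1.55e-53) and for the combination (8.13e-33), was at 18.9 to 45.7 CPM in every hybrid of SF009, SF193 or SF279 and at most 6.81 CPM in the others. HanXRQChr08g0213511 (17519996 to 17524637, plus strand) had the next lowest p for the second-named parent (1.74e-49): all hybrids of SF193 or SF279 were at 15.4 to 32.8 CPM and the other 9 at most at 0.599 CPM, as the lines SF193 (27.6 and 28.3 CPM) and SF279 (23.6 and 21.4 CPM) stood apart from the rest, except SF009, whose stressed plants had 6.79, 0.00 and 15.7 CPM.

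Many members were on in some lines and off in others. With a line called on at a median of at least 1 CPM over its libraries and off at under 0.1 CPM, 260 members (16.9%) were on in at least 1 line and off in at least 1 other, beside 14.9% of the genes chosen alike on other chromosomes. Of the 260, 91 were off in 1 line alone and 14 were on in 1 line alone. A state is a description of the reads counted for the reference gene, and reads of a diverged copy that the authors' counting did not assign to it would leave it off.

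The number of these members that were off was smallest in SF193 (45) and SF009 (46), then SF092 (63), SF279 (84), SF109 (93), SF326 (103), SF317 (111) and SF342 (133). SF193 and SF342 were the most different pair, with 113 members on in SF193 and off in SF342 and 24 the other way. SF342, with 4 libraries, and SF317 also had the lowest total counts of the lines, 25508754 and 36243066, while SF326 had 54191550. No count over all libraries of a line allows up to 0.118 CPM, above the limit of 0.1 CPM for off. Whether depth bears on this order was not tested. The states by line and by pair were not counted for the other chromosomes, so they do not set chromosome 8 apart. SF092 and SF326 had 33 members on in SF092 and off in SF326 and 0 the other way. The share of on/off members was highest between 60 and 70 Mb (25.4%) and between 20 and 30 Mb (25.2%) and lowest between 120 and 130 Mb (7.32%). Of the 34 on/off members between 20 and 30 Mb, 23 were off in SF342, 21 in SF326, 17 in SF317 and 3 in SF193. A run of 3 neighbouring members from 24365683 to 24391788 shared 1 pattern: on in SF009, SF092, SF109, SF193 and SF279 and off in SF317, SF326 and SF342.

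The hybrids are other plants than the lines in which these states were read. Where the on and off lines were both first-named parents, 140 of 145 members had a called effect of the first-named parent, beside 53.1% of the other members. In 143 of the 145 the hybrids of the on lines were the higher, with a median difference of 3.07 on the log2 scale. On the second-named side 189 of 207 had a called effect, beside 62.4% of the other members, and 198 were higher in hybrids of the on lines, with a median of 1.64.

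In a cross of an on line with an off line, 79.0% of 1406 cases (a member in a hybrid) were on in the hybrid, 7.75% were off and the rest lay between. The median level in the hybrid was between 0.455 (SF009_SF279) and 0.768 (SF009_SF326) of that in the on parent in 15 hybrids, and 1.15 in SF092_SF326. Of 503 cases with both parents off, 83.7% were off in the hybrid, and of 1238 with both on, 94.0% were on.

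Not all hybrids had the states that their labelled parents would give. Of 2879 cases in which the hybrid and both of its parents had a state, 183 (6.36%) went against the parents: the hybrid was off with a parent on in 135, and on with both parents off in 48. They were unevenly spread over the crosses. The 4 hybrids of SF193 had 0, 1, 1 and 2 of them among 189 to 197 members, and SF109 with SF279, SF317 and SF342 had 4, 1 and 1. SF092_SF326 had 37 of 175 (21.1%), SF109_SF326 28 of 174 (16.1%), SF009_SF279 21 of 167 (12.6%) and SF009_SF326 20 of 161 (12.4%). The other hybrids of SF092 had 7.45% to 10.3% and the other hybrids of SF009 4.24% and 7.45%. So all hybrids of SF009 and SF092, and SF109_SF326, had higher shares than the rest.

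Over genes chosen alike on the other chromosomes the same hybrids had the higher shares, with 14.5% in SF092_SF326, 15.2% in SF109_SF326, 16.9% in SF009_SF279 and 12.9% in SF009_SF326, beside 0.234% to 2.08% in the hybrids of SF193 and SF109 other than SF109_SF326. SF193_SF326, the remaining hybrid of SF326, had 1 of 189. Over the 16 hybrids together, the share on chromosome 8 was highest between 110 and 120 Mb, with 26 of 153 cases (17.0%), where SF009_SF279 had 5 of 10. It was 33 of 239 (13.8%) between 30 and 40 Mb, where SF092_SF326 had 7 of 15 and SF092_SF317 and SF109_SF326 had 5 each, and 27 of 217 (12.4%) between 100 and 110 Mb, where SF092_SF326 had 7 of 13. None was seen from 130 to 140 Mb. Whether the plants grown as lines were the parents of these hybrids was not tested.

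**Figure D4:**
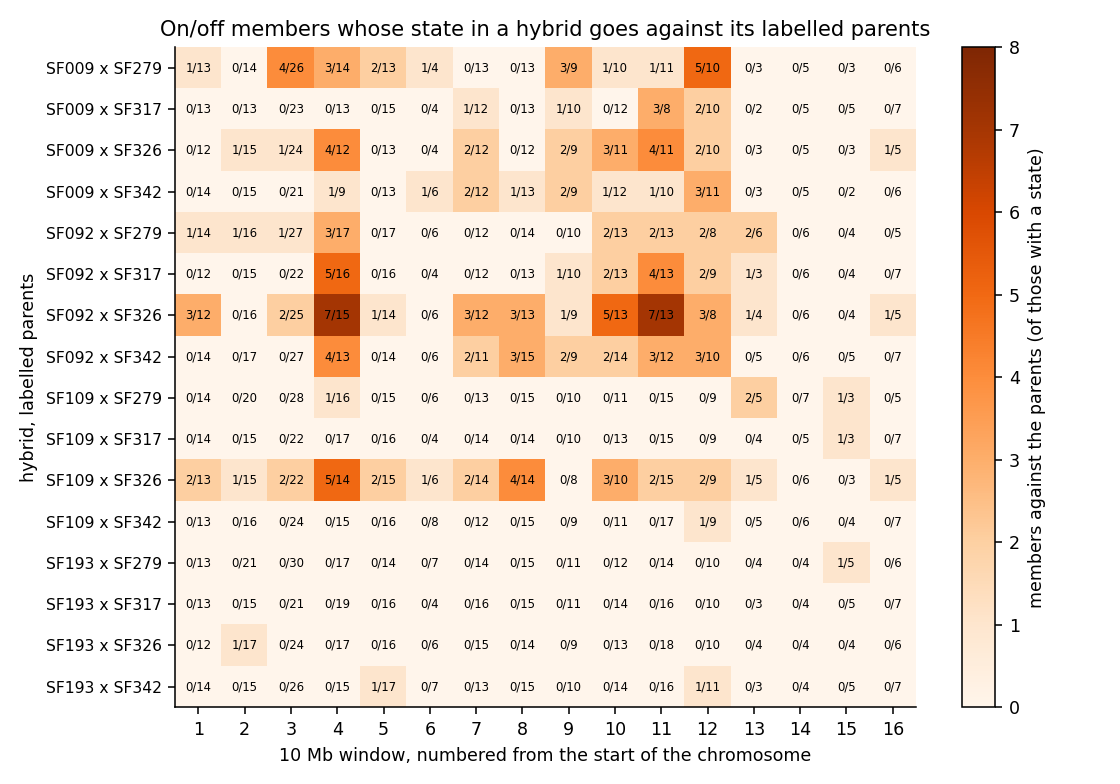
Each cell gives, for 1 hybrid (row) and one 10 Mb window (column, numbered from the start of the chromosome), the on/off members whose state in the hybrid goes against both labelled parents together, of those with a state, and the colour is that number. The rows of SF193 and of SF109 with SF279, SF317 and SF342 are nearly empty, and window 4 in SF092 x SF326 has 7 of 15.

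Called line differences, on/off members included, were followed into the hybrids in the same way. Of the members called between SF279 and SF317, 96.1% had the same direction between the hybrids of these lines, of those between SF279 and SF342, 95.99%, and of those between SF109 and SF193, 93.1%. It was 77.1% for SF317 and SF326, 82.3% for SF279 and SF326 and 83.7% for SF326 and SF342. It was 91.1% for SF317 and SF342. On the first-named side the pairs of SF193 with SF009 and SF092 had 85.1% and 85.0%, SF009 and SF092 86.5%, and the pairs of SF109 with SF009 and SF092 91.1% and 91.0%. Pairs with SF326 were thus the lowest on the second-named side, while on the first-named side the pairs with SF009 or SF092 were not all low. Among the members not called between the lines of a pair, the share with the same direction was 56.0% to 66.8%. The difference between hybrids, each averaged over the same 4 other parents, was smaller than that between lines, with medians of 0.25 to 0.62 beside 1.23 to 1.77 on the log2 scale.

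Single members, named for the parent side on which they were on in a line and off in another, show these states by plant. Without SF009, SF092 and SF326 and their hybrids, the first pair below had adjusted p-values of 0.690 and 1.00 for the first-named parent. HanXRQChr08g0223971 (63172340 to 63184207, plus strand; first-named parent adjusted p = 3.36e-29) was at 23.3 to 50.6 CPM in SF092, SF317, SF326 and SF342 and at most 0.188 CPM in SF109, SF193 and SF279. In SF009, 5 plants had 0.0937 to 0.238 CPM and control plant 3 had 10.3 CPM. All 4 hybrids of SF009 were on, with 8.76 CPM (control) and 25.5 CPM (stress) in SF009_SF279, although SF279 had at most 0.188 CPM. The library labelled SF009_SF279 control 1 had no count. Hybrids of a pair of off parents without SF009, namely SF109_SF279 and SF193_SF279, stayed at most at 0.117 CPM. HanXRQChr08g0227921 (92116686 to 92125134, minus strand; first-named parent adjusted p = 8.75e-46) was at 32.4 and 63.1 CPM (control and stress) in SF092, 21.4 and 35.9 in SF326, 11.1 and 29.3 in SF009 and 9.88 and 38.7 in SF342. It was at most 0.950 CPM in SF109, SF193, SF279 and SF317 and in the hybrids of these lines with each other at most 1.04 CPM.

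HanXRQChr08g0215991 (26711967 to 26714707, plus strand; second-named parent adjusted p = 5.16e-12) was off in SF317 alone, at 0.154 CPM in control and with no count under stress, beside 31.9 to 77.7 CPM in the other lines. The hybrids of SF317 with SF009, SF109 and SF193 were at 22.6 to 30.1 CPM and all other hybrids at 29.7 to 83.9 CPM. In SF092_SF317 it was at 24.9 CPM in control and 60.3 under stress, a mean that includes the library which matched SF326. HanXRQChr08g0231091 (107328444 to 107332962, minus strand; second-named parent adjusted p = 0.756, first-named 2.24e-40) was at 25.3 and 34.9 CPM in SF092, 43.5 and 62.6 in SF193, and 35.1 to 45.8 CPM in 5 SF326 plants. The 6 SF009 plants had 2.38, 27.3 and 25.5 CPM (control) and 0.197, 0.674 and 30.5 CPM (stress). Among hybrids it was on at 24.8 to 60.5 CPM with SF193 as a parent, and the other hybrid groups were at most at 1.30 CPM, apart from the library labelled SF092_SF317 stress 3 with 53.9 CPM. The library labelled SF326 stress 3 had 0.436 CPM. So the gene was high in the lines SF092 and SF326 and low in every hybrid of SF092 and in those of SF326 with SF009, SF092 and SF109, that library aside.

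**Figure D5:**
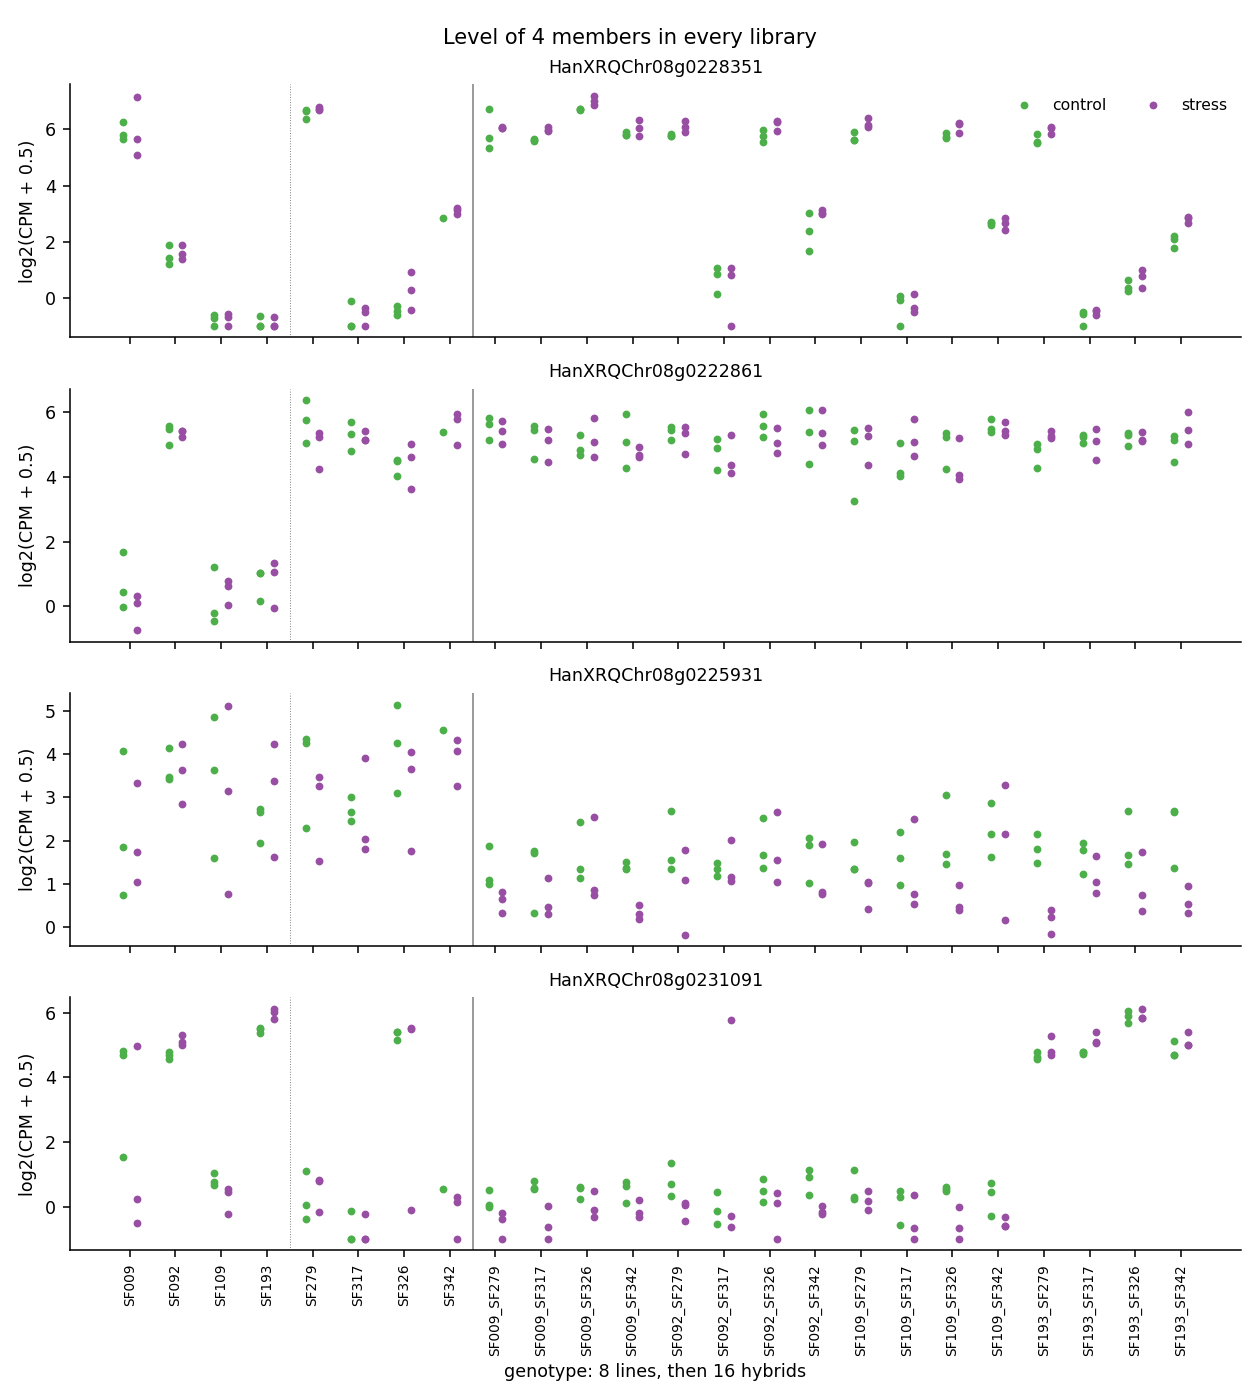
Points are single libraries (y axis log2 of CPM plus 0.5, green control, purple stress) of 4 members in the 8 lines, left of the solid line, and the 16 hybrids. HanXRQChr08g0231091 (bottom) is high in SF092 and SF326 and at most 0.928 CPM on average in SF092_SF326, and HanXRQChr08g0225931 has lower means in the hybrids (1.46 to 4.53 CPM) than in the lines (5.74 to 16.9 CPM).

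Hybrids were compared with lines as 16 against 8 genotypes. Averaged over water supply, 403 members were higher in hybrids (26.2%, edgeR, adjusted p under 0.05; 22.5% of all genes tested, 26.5% chosen alike) and 342 lower (22.3%; 18.8% and 22.0%). Without the 4 mismatched libraries these were 426 and 371. Without the line SF342 they were 371 and 386, and without SF009, SF092 and SF326 and their hybrids 461 and 233. The balance of higher and lower members thus depended on the lines compared. The higher members differed by a median of 0.46 on the log2 scale and 80 of them by more than 2-fold. Of these 403, 27.8% were off in at least 1 line, and of the 342 lower members 0.292%. On/off members as defined above were 111 of the 403 and 1 of the 342. They made up 16.9% of all members and 14.9% of the genes chosen alike elsewhere. The comparison averages on the log scale, so a line that is off lowers the mean of the lines, and these shares are a description. In 3 members, HanXRQChr08g0212941, HanXRQChr08g0226211 and HanXRQChr08g0237101, the mean of every hybrid was above that of every line. In 1, HanXRQChr08g0225931, it was below.

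HanXRQChr08g0222861 (57175115 to 57175969, plus strand) had the lowest p on the higher side, with a log2 difference of 1.86 ± 0.11 (SE, adjusted p = 3.23e-26). The lines SF009, SF109 and SF193 had 0.470 to 1.37 CPM, the other 5 lines 19.9 to 56.2 CPM, and the 16 hybrids 21.8 to 48.2 CPM. The first-named parent, low in 3 of 4 lines, had no called effect in hybrids (adjusted p = 0.798). HanXRQChr08g0228351, described above, was next, with a log2 difference of 2.84 ± 0.18 (adjusted p = 4.99e-25).

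HanXRQChr08g0225931 (76452812 to 76456615, plus strand) had the lowest p on the lower side and was the member that lay below all lines in every hybrid. The lines had 11.3 ± 4.25 CPM (SD over 8 lines, 5.74 to 16.9) and the hybrids 2.43 ± 0.759 CPM (SD over 16 hybrids, 1.46 to 4.53), a log2 difference of -2.28 ± 0.17 (adjusted p = 8.74e-23). Single plants overlapped. HanXRQChr08g0229551 (99366557 to 99371843, plus strand) was at 5.56 ± 1.57 CPM in lines and 1.83 ± 0.655 CPM in hybrids, -1.65 ± 0.15 on the log2 scale (adjusted p = 4.28e-17). Neither was called for the first-named parent (adjusted p = 0.169 and 0.524), which does not show that they were alike.

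The drought response differed between hybrids and lines for 541 members (35.2%, edgeR, adjusted p under 0.05), beside 28.7% of all genes tested and 34.2% of those chosen alike. The log2 fold change was the higher in hybrids for 214 of them (13.9% of members, 11.2% of all genes tested, 13.7% chosen alike) and the lower for 327 (21.3%, 17.5% and 20.5%). Without the 4 mismatched libraries 557 were called. Of the 541, the mean log2 fold change was the larger in size in hybrids for 493 (91.1%), beside 91.7% of such genes chosen alike elsewhere, so chromosome 8 did not stand apart in this share. As the median size of the log2 fold change over all members, lines had 0.43 ± 0.10 (SD over 8 lines, 0.33 to 0.63) and hybrids 0.57 ± 0.06 (SD over 16 hybrids, 0.46 to 0.69). With replicate 1, 2 or 3 left out 315 to 397 members were called, and 315 without replicate 2. The run without replicate 3 also lacked the line SF342.

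HanXRQChr08g0207791, named above for its average change, had the lowest p for this difference (adjusted p = 1.74e-08). Lines went from 3.95 ± 2.68 to 0.708 ± 0.376 CPM and hybrids from 7.68 ± 2.67 to 0.235 ± 0.291 CPM. HanXRQChr08g0232801 (117211328 to 117213252, minus strand; adjusted p = 3.23e-08) was among the most abundant members. Lines rose from 280 ± 93.1 to 689 ± 201.3 CPM and hybrids from 188 ± 78.1 to 1032 ± 259 CPM, and the mean of the hybrids was the lower in control plants and the higher under stress. The difference of the 2 log2 fold changes was 1.22 ± 0.16 (SE). It was higher under stress in all 24 genotypes.

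For the 162 members that had no count in at least 1 genotype at both levels of water supply, edgeR's fitted mean of such a genotype has no lower limit, which touches the tests of averages over genotypes. edgeR called 0 of them for the average drought change or for the drought response of hybrids against lines, while limma voom called 73 and 11 of them. For the level of hybrids against lines edgeR called 41 of the 162 and limma voom 126, so the 403 higher and 342 lower members leave out some that limma voom called. For line differences edgeR called 159 of the 162. For the parent combination it called 118 of them and limma voom 116.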

How the data were processed

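Leaf RNA of 24 sunflower genotypes was sequenced as oriented paired reads of 100 bp, per the labels' protocols. The authors deposited read counts per gene, whole numbers that were not normalized, with positions per the file headers, and a filtered table of CPM, counts scaled to a common total. Of the latter, only its genes and its libraries were used, for 1 alternative. R 3.3.3 and edgeR 3.16.5 are listed, without a role, in the submitters' processing notes. The sources used here give no aligner, genome build or strand setting of the counting. Overlapping, antisense and near-identical genes are therefore uncertain.

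Rows marked as ribosomal RNA (17) were left out. Genes kept by filterByExpr (36989) were fitted with edgeR 4.0.16 (R 4.3.3; robust quasi-likelihood, TMM, 1 mean per group of genotype and water supply), and p-values were adjusted by Benjamini-Hochberg over all of them, with a threshold of 0.05. The 48 groups shared 1 estimate of the spread. CPM by library totals were used for levels and states. The members and lists were chosen with earlier results of these data known. Named members were, per comparison and direction, at most 2: those with the largest drought changes of 1 direction in 24 genotypes, those with the lowest p in the other tests, and on/off members for each parent side. In simulated counts over 2706 genes, 98.4%, 100% and 98.6% of drought changes of 1.5-fold, 2-fold and 4-fold were called, and 7.14%, 55.3% and 93.9% of line differences of these sizes. The simulation gave every gene the same spread, every genotype the same drought change, and line differences to SF193 alone. It held no other genotype differences and no mismatched libraries, so these shares are not the power in the real data. Alternatives were DESeq2 1.42.0, limma voom 3.58.1, other scalings and filters, libraries left out and the replicate number as a block.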

Additional observations from a re-analysis of the deposited data

Results flagged for a closer look

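The drought response differed between genotypes for 250 members and between hybrids and lines for 541, each by a test of the difference itself (edgeR). For HanXRQChr08g0216131 the adjusted p of the difference between genotypes was 5.69e-09, and for HanXRQChr08g0231881 it was 2.94e-07. For HanXRQChr08g0207791 the adjusted p of the difference between hybrids and lines was 1.74e-08, and for HanXRQChr08g0232801 it was 3.23e-08.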

How the results depend on the processing

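Of the main results under the alternatives, 198 values stayed within 1.5 times or within the spread of the reported value, and 11 moved. The check did not look at direction. The drought split went from 526 higher and 581 lower to 691 higher and 426 lower with library totals alone, and both counts were among the 198. With library totals alone the lowest window median was 0.020 and the highest 0.50, as the median of all genes moved by 0.20. In windows of 20 Mb the highest was 0.11. Leaving out replicate 1, 2 or 3 gave 21 to 43 members with a drought response differing between genotypes. It gave 315 to 397 with one differing between hybrids and lines. Each of these fits had fewer samples, and that without replicate 3 also lacked the line SF342. Without SF009, SF092 and SF326 and their hybrids, chosen after seeing the data, 65 members differed in drought response between genotypes, 430 had a first-named parent effect and 99 a combination effect, with fewer genotypes compared. Of the values of named members, 279 kept their call and 5 lost it, all in that last alternative. The second-named parent effect of HanXRQChr08g0231091 was not called in any of its 12 alternatives.

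Whether the replicate numbers pair the samples is not settled. The labels do not tie a number to a block, and not every pair of control and stressed plants with the same number correlated above 0.1, so the fit without the block was kept. As a hint from the data, 58 of 69 pairs lay above 0, 37 above 0.1 and 2 under -0.1 (range -0.21 to 0.45). All 3 pairs lay above 0.1 in 4 of 23 genotypes, and 62 of 141 libraries correlated best with their own number. With the replicate block, 222 members differed in drought response between genotypes, 527 were higher and 583 lower under stress, and 532 differed between hybrids and lines. This block was common to all genotypes, so it does not model a pairing within a genotype.

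Depth limits the off state: 3 counts in a library stood for 0.218 to 1.07 CPM.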

Other observations

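Among members changed more than 2-fold by drought, the longest stretches of neighbours with 1 direction held 3 members. Lower under stress were 3 from 2792853 to 2886681, 3 from 28393436 to 28539089 and 3 from 79821606 to 80494342. Among on/off members, the other stretches with 1 pattern held 2, as from 73453999 to 73492986, where both were on in every line but SF342.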
